A study of Mus musculus with 4 samples.

Results

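Albumin, the 3 fibrinogen chains and 6 further plasma proteins are secreted into blood chiefly by the liver, and their genes were followed here in mouse colon. The 10 genes listed were Alb, Fga, Fgb, Fgg, Ttr, Apoa1, Apoa2, Trf, Ahsg and Hpx, out of 16637 genes named on the array. Members were found by the gene symbol of a probe in the platform annotation, and a gene follows the Alb order if both compound arrays read lower than both the mock and the TNBS array. That order was taken from the measured Alb values, so the members' place in it is a description and was not tested. Of the 10 genes, 9 had a named probe, each with 1 probe, and none was named for Fga. A gene is called measured if it reached the median intensity of the named probes (269 to 272 by array) on at least 1 array. This held for 8 of the 9 genes, while Fgg stayed below it on every array, and for 10056 genes in all.

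Colon RNA of female mice was labelled with Cy3 and read on 1-colour arrays, with 1 array for each of 4 groups of 6 mice (24 in total). Mock mice, with strain label BALB/c, received 0.1 ml of 50% ethanol. The other groups, with strain label BALC/c, received 250 mg/kg trinitrobenzene sulfonic acid (TNBS), a hapten that provokes colitis when given with ethanol, in that vehicle. TNBS was given alone, with ginger extract, or with zingerone, a phenolic ketone of ginger, and the amounts of ginger and zingerone are described as various. Tissue was taken on day 7. The labels give no age and do not tell if the RNA on an array was pooled from several mice. With 1 array per group there is no replicate spread to test against, and precision is limited by the small number of arrays. A gene is called higher or lower between 2 arrays where they differ at least 2-fold. In bulk tissue, fewer cells that express a gene and less RNA per cell cannot be told apart.

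Albumin is the main carrier and osmotic protein of plasma. Fibrinogen is a dimer of alpha, beta and gamma chains that thrombin turns into fibrin, and its production in liver rises in the acute phase response. Transthyretin carries thyroid hormone and retinol-binding protein, apolipoproteins A-I and A-II form the scaffold of high-density lipoprotein, transferrin carries iron, hemopexin binds free heme, and fetuin-A (Ahsg) keeps calcium phosphate in solution. Hepatocytes are their main source. The intestine also makes apolipoprotein A-I, and transthyretin is made in choroid plexus and pancreatic islets as well.

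Alb and Fgb were at their highest on the mock and TNBS arrays and several-fold lower on both compound arrays. Alb had an intensity of 3566 on mock and 3412 on TNBS, with 819 on ginger and 553 on zingerone. The mock and TNBS values thus lay 1.05-fold apart. Alb was 4.17-fold lower on ginger and 6.17-fold lower on zingerone than on TNBS, and 4.35-fold and 6.45-fold lower than on mock. Fgb, which encodes the fibrinogen beta chain, read 833 on mock and 1071.5 on TNBS, with 254.5 on ginger and 189 on zingerone. It was 4.21-fold lower on ginger and 5.68-fold lower on zingerone than on TNBS, and 3.27-fold and 4.41-fold lower than on mock. Both genes were lowest on the zingerone array. The Fgb probe stood below the median of the named probes on both compound arrays, and its zingerone value lay close to the lower quartile of all probes there (165). The deposited values appear to include background, so folds against such dim values may be understated. After subtraction of each array's 5th percentile, the smallest fold between a compound array and the mock or TNBS array was 5.37 for Fgb, against 3.27 as deposited, and 4.72 for Alb, against 4.17.

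**Figure D1:**
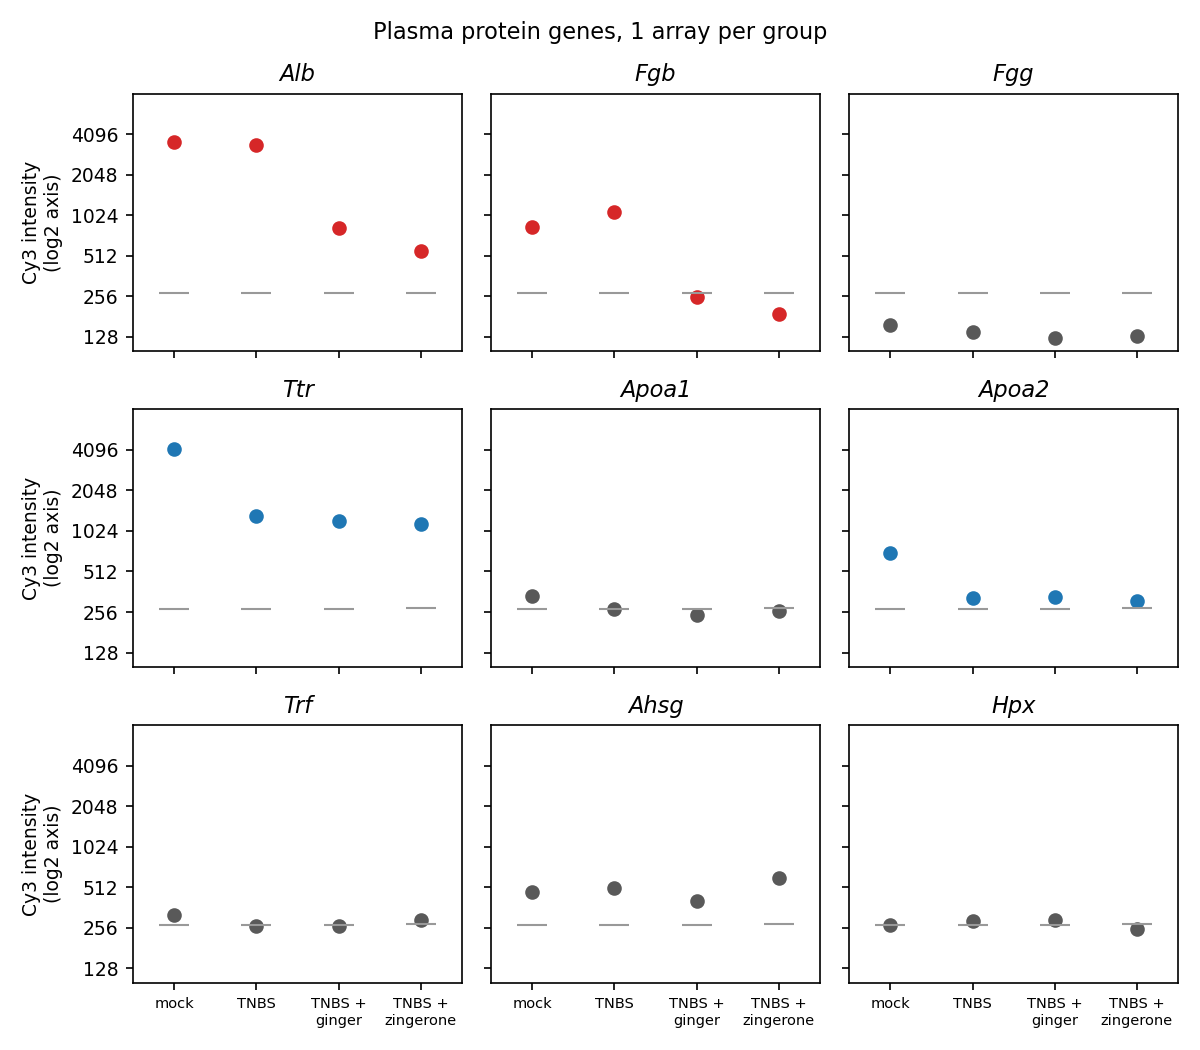
Cy3 intensity (log2 axis) of the 9 plasma protein genes with a named probe on each of the 4 arrays; each point is 1 array and the grey dashes mark the median of the named probes. Red marks the 2 genes at least 2-fold lower on both compound arrays than on mock and TNBS, Alb and Fgb, blue the 2 genes at least 2-fold higher on mock than on each other array, Ttr and Apoa2, and dark grey the rest.

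The other fibrinogen chains gave no second reading of this pattern. Fgg, for the gamma chain, read 156 on mock and 139 on TNBS, with 126 on ginger and 130.5 on zingerone. All 4 values lie below the lower quartile of the arrays (164.5 to 165). The small drop from TNBS, 1.11-fold on ginger and 1.07-fold on zingerone, is a difference between dim values. With no named probe for Fga, 1 of the 3 chains that make up fibrinogen was measured.

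The start regions of Alb and Fgb are shown because these 2 genes carry the pattern. Sequences of 300 bases, from 250 before to 50 after the annotated start, came from RefSeq (build GRCm38.p6) and matched 8 of the 10 listed genes. They were searched on both strands for CTGGGAA (reverse TTCCCAG), the core of the interleukin-6 response element described in fibrinogen genes. The capitals below mark these letters. The Alb region is chr5:90460620-90460919 on the plus strand, and the Fgb region is chr3:83049814-83050113 on the minus strand.
Alb: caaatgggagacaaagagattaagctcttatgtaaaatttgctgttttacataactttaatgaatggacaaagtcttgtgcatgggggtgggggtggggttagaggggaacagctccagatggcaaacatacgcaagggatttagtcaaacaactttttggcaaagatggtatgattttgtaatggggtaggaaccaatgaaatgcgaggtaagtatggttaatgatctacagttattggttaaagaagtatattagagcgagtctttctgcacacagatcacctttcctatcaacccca
Fgb: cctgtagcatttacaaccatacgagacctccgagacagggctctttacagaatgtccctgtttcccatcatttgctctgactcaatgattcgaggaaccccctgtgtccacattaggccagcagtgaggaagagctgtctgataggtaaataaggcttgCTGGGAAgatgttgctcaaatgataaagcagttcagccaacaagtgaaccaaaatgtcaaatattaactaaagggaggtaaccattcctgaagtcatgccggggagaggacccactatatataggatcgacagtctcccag

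CTGGGAA begins 91 bases before the annotated start of Fgb and 13 before that of Fgg, whose probe stayed dim. Among the 32851 RefSeq promoters of this length, 11.1% hold it on either strand. It is not in the windows of Alb, Fga, Ahsg, Apoa1, Apoa2 or Hpx, so Alb and Fgb do not share CTGGGAA. This does not extend to other short elements. The letters GTTAAT (reverse ATTAAC) stand in the windows of Alb, Fgb and Fga. They are absent from those of Fgg, Ahsg, Apoa1, Apoa2 and Hpx. How many promoters hold GTTAAT was not counted, so this split cannot be read as a result about the members. The letters are also absent from the window of Serpinc1, a gene described below whose profile was near that of Alb. A match is a description of these letters and not evidence of binding.

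Ttr and Apoa2 had another shape: they were high on the mock array and low on all 3 arrays of TNBS-treated mice. Ttr read 4169 on mock and 1316 on TNBS, with 1210 on ginger and 1146 on zingerone. It was 3.17-fold lower on TNBS than on mock and 3.45-fold and 3.64-fold lower on ginger and zingerone, but 1.09-fold and 1.15-fold lower on the compound arrays than on TNBS. The 3 TNBS arrays therefore sat together, all below mock. Apoa2 read 707 on mock and 327 on TNBS, with 330 on ginger and 308 on zingerone, and was 2.16-fold lower on TNBS than on mock. These were 2 of the 8 measured members lower on TNBS than on mock, where 4.52% of all measured genes were lower. A mock value at least 2-fold above each other array was found for 47 genes (0.467%), a pattern counted after the values were seen, and Ttr ranked 19 and Apoa2 39 among all measured genes by the size of that step. Some markers of colon epithelium were also low on TNBS: 4 of 10 measured absorptive colonocyte markers and 4 of 7 goblet cell markers were lower there than on mock. The colonocyte marker Krt20 went the other way, with 7648 on mock and 12315 on TNBS. The bright goblet cell marker Zg16 read nearly the same on both (51921.5 and 50081). The summed intensity of the colonocyte markers was 89870 on mock and 37921 on TNBS, with 54312 on ginger and 98061 on zingerone, and that of the goblet cell markers 204605, 117613, 167685 and 193474 in the same order. Both sums were higher on the compound arrays than on TNBS, while Ttr and Apoa2 stayed within 1.15-fold of TNBS there. Single markers did not all follow the sums: Lypd8 (11312 on TNBS, 9370 on ginger), Zg16 (33341 on ginger) and Krt20 (9804 on ginger) read lower on ginger than on TNBS. The part of these cells in the drop on TNBS was not tested.

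The remaining 4 measured members differed little and none lay 2-fold apart between any arrays. Apoa1 read 334 on mock and 268 on TNBS, with 243.5 on ginger and 259.5 on zingerone, and its highest and lowest arrays lay 1.37-fold apart. Trf, the iron carrier, read 316 on mock and 266 on TNBS, with 265 on ginger and 294 on zingerone, a span of 1.19-fold. Hpx, the heme scavenger, read 268 on mock and 286 on TNBS, with 294 on ginger and 249.5 on zingerone, a span of 1.18-fold. These 3 probes stayed near the median of the named probes on every array. Ahsg read 470 on mock and 506 on TNBS, with 403 on ginger and 602 on zingerone. It was thus low on ginger and high on zingerone, 1.49-fold apart, and had no shared direction on the compound arrays.

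The gap between the lower of mock and TNBS and the higher of ginger and zingerone, on the log2 scale, puts each gene on 1 measure of the Alb order: above 0 the gene is in that order, and at 1 the gap is 2-fold. Alb had a gap of 2.06 and Fgb of 1.71. Of the 8 measured members 4 were in the order with any gap, against 13.2% of all measured genes, and 2 with a 2-fold gap, against 0.0597% (6 genes). Alb is in both counts because the order was taken from its values, so Fgb was the only other member at 2-fold. Both are themselves among the 6 genes. Ttr (0.12) and Apoa1 (0.05) were in the order by a small margin, and Apoa2 (-0.01), Hpx (-0.14), Trf (-0.15) and Ahsg (-0.36) were outside it. The values nearest to the boundary were thus those of Apoa1 just inside and Apoa2 just outside. The median gap of the 8 was 0.02, and that of all measured genes -0.27. Ranked by gap, Alb was at place 2 and Fgb at place 3 of 10056, behind Sema4b, a semaphorin, with Ttr at 497. Next came Tnfaip6, a hyaluronan-binding protein, Upp1, uridine phosphorylase, and Medag, and Serpinc1 was at place 7.

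**Figure D2:**
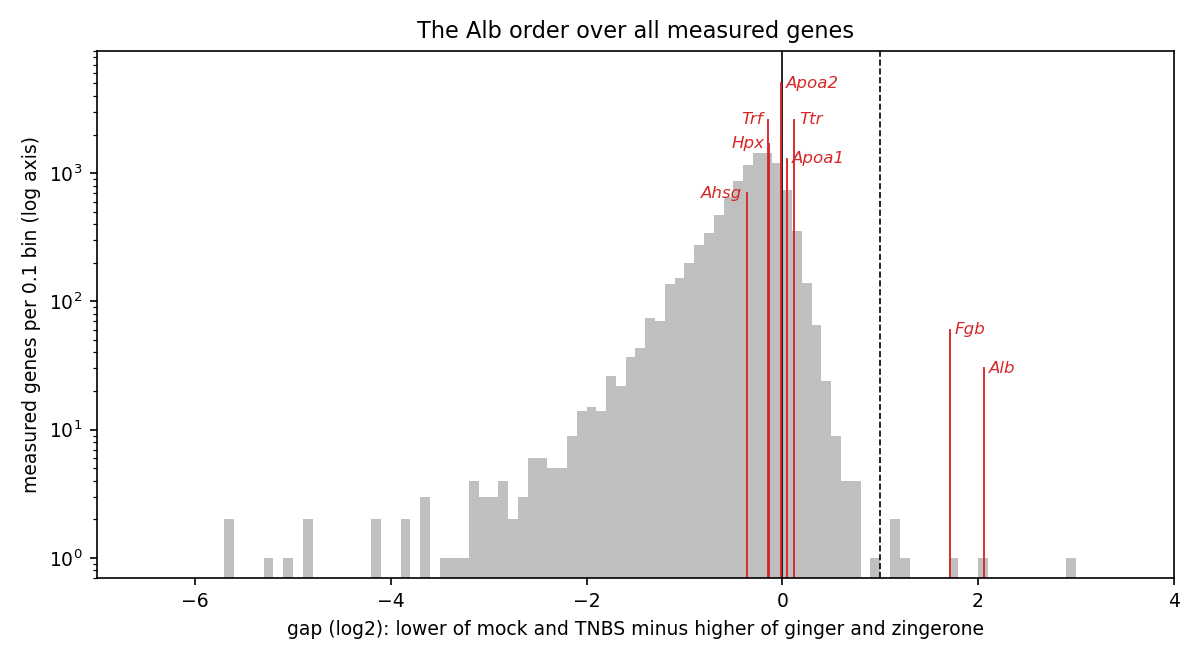
Number of measured genes (log axis) by gap in log2 units, in bins of 0.1, with the 8 measured plasma protein genes marked by red lines whose height carries no value; the solid line is at 0 and the dashed line at a 2-fold gap. Alb at 2.06 and Fgb at 1.71 stand to the right of the dashed line with 4 other genes, and the other 6 members lie within the bulk.

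By single comparison, Alb and Fgb were the 2 members lower on ginger than on TNBS (2.48% of all measured genes) and the 2 lower on zingerone than on TNBS (2.96%). Alb, Fgb, Ttr and Apoa2 were the 4 lower on ginger than on mock (1.08%) and also the 4 lower on zingerone than on mock (1.05%). None of the 8 was higher on TNBS than on mock (5.08% of all measured genes were), on ginger than on TNBS (1.35%) or mock (1.62%), or on zingerone than on TNBS (4.57%) or mock (1.53%). The comparisons share the TNBS or the mock array, and the Alb order was defined on them, so these counts are not separate observations. Among all measured genes, Alb was the 40th lowest by the log2 difference of ginger from TNBS (-2.06) and Fgb the 38th (-2.07), and for zingerone against TNBS the places were 24 (-2.63) and 34 (-2.51).

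The compound arrays differed less from each other than from TNBS for Alb and Fgb. Alb was 1.48-fold lower on zingerone than on ginger, and Fgb 1.35-fold. Over all measured genes, 7.08% lay at least as far apart between ginger and zingerone, in either direction, as Alb did and 14.3% as far as Fgb. No member was 2-fold apart between these arrays (1.1% of measured genes were), and the difference in Alb or Fgb between ginger and zingerone cannot be set against any spread between replicates.

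Each member rests on 1 probe, so no second probe of the same gene bears on its pattern. Among the 1775 measured genes with 2 probes, the gaps of the probes differed by a median of 0.27. In 9 cases a probe had a gap of 0.5 or more, and the other probe was above 0 in 3 of them and at 0.5 or more in none. All 10 genes with the largest gaps, Alb and Fgb among them, had 1 probe each, as did 7915 of the 10056 measured genes.

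The profile of Fgb over the 4 arrays was the nearest to that of Alb of 10055 measured genes. Nearness is the Euclidean distance between log2 intensities centred on each gene's mean over the 4 arrays. It was 0.41 for Fgb, while the median gene lay at 2.44. Ttr ranked 73 (1.82) and Apoa2 192 (1.96), and the other 4 measured members ranked from 1144 to 6345. Ttr and Apoa2 lay 0.56 from each other.

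Of genes that are not members, the 10 nearest to Alb were Upp1 (1.05), Tnfaip6 (1.06), Sema4b (1.08), Serpinc1 (1.25), Gbp2 (1.32), Isg15 (1.39), Fabp1 (1.42), Gbp2b (1.44), Ifit1 (1.44) and Lgals3 (1.45). Serpinc1 encodes antithrombin, the liver-made inhibitor of thrombin, and Fabp1 the fatty acid-binding protein of liver and gut. Serpinc1 read 634 on mock and 716 on TNBS, with 336 on ginger and 275 on zingerone. It was 2.13-fold lower on ginger and 2.60-fold lower on zingerone than on TNBS, and its gap was 1.89-fold as deposited and 2.40-fold with the 5th percentile subtracted. Fabp1 read 376.5 on mock and 325 on TNBS, with 190 on ginger and 165 on zingerone, a gap of 1.71-fold between values of which the last lies at the lower quartile. Gbp2, Gbp2b, Isg15 and Ifit1 are interferon-induced genes. They had their highest value on mock, and Gbp2b was already 2.30-fold lower on TNBS, unlike Alb. The galectin gene Lgals3 read 54479 on mock and 57220 on TNBS, near the top of the scale, and 36993 and 23212 on the compound arrays.

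**Figure D3:**
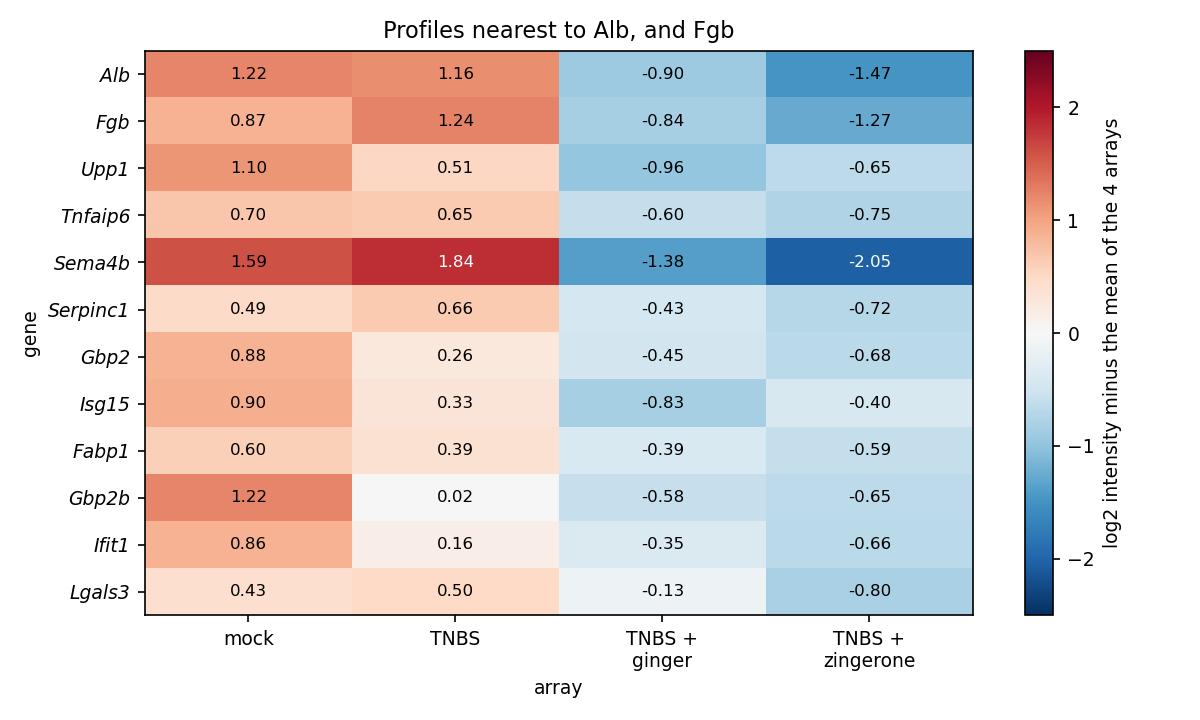
Log2 intensity minus the mean over the 4 arrays (colour and printed value) for Alb, Fgb and the 10 other measured genes with the nearest profiles, in order of distance to Alb; columns are the 4 arrays. Alb and Fgb are above their means on mock and TNBS and below them on both compound arrays, and so are the other 10 genes.

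The measured part of a wider list of 71 other plasma proteins made by the liver did not share the shape of Alb as a group. Of the 71, 63 had a named probe, and 26 of these were too dim to be called measured. Among the dim genes, Pzp (0.34), Mug1 (0.34), F9 (0.28), Kng1 (0.19) and Fetub (0.10) had gaps in the Alb order. Cfi (0.03), Serpind1, C6 and Cp (0.01 each) were in it by a small margin. The other dim genes were outside it, F11 (-0.32) and Fgl1 (-0.25) the farthest. With no filter, 14.2% of all named genes were in the order. Of the 37 measured genes 5 were in the Alb order, a share close to the 13.2% of all measured genes, and none at 2-fold (0.0597%). The median gap was -0.17. Serpinc1 had the largest gap of them, followed by Itih4 (0.34), an inter-alpha-trypsin inhibitor heavy chain, at 404 on mock and 265 on TNBS, with 187.5 on ginger and 209 on zingerone. Of the 37, 6 were higher on TNBS than on mock (5.08% of all measured genes) and none lower (4.52%). Coagulation factor X (F10) read 237 on mock and 2049 on TNBS, with 529.5 on ginger and 423 on zingerone. Complement C3 read 2847, 8509, 3460 and 1512 in the same order of arrays, and the iron hormone gene Hamp 258, 854, 289 and 276. In all, 6 of the 37 were lower on ginger than on TNBS (2.48% of all measured genes) and none higher (1.35%). On zingerone 6 were lower than on TNBS (2.96%) and 1 was higher (4.57%). Serpinc1 was among the lower genes in both.

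Markers of hepatocytes that are not plasma proteins were listed to see whether they moved with Alb. Of 20 genes 15 had a named probe and 11 were measured. Of these 4 were in the Alb order, against 13.2% of all measured genes, and none at 2-fold, against 0.0597%. The 4 were Cps1 (0.13), Cyp1a2 (0.23), Tat (0.02) and G6pc (0.33), named after their values were seen, and the median gap of the 11 was -0.15. The summed intensity of the 11 was 5093 on mock and 4784 on TNBS, with 4501 on ginger and 3880 on zingerone. The ginger sum holds a lone bright value of Slc10a1 (516.5), without which it would lie further below that of TNBS. Cps1, the first enzyme of the urea cycle, read 419.5 on mock and 335.5 on TNBS, with 307.5 on ginger and 291 on zingerone. Cyp2c29, Tdo2, Asgr2 and Otc stayed below the median of the named probes on every array. Between these dim values, Cyp2c29 (0.34) and Otc (0.18) had gaps in the Alb order, and Tdo2 (-0.13) and Asgr2 (-0.05) did not. The gaps farthest from 0 were those of Slc10a1 (-1.97), a bile acid transporter bright on ginger alone (516.5, at most 134 elsewhere), and Hal (-0.46). Because the deposited values appear to include background, no marker can be called absent, and the part of liver RNA in the Alb and Fgb values was not tested.

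Regulators of liver genes gave another picture. Of 14 measured genes 1 was in the Alb order (13.2% of all measured genes), with a median gap of -0.60. Hnf4a, a nuclear receptor of liver and gut epithelium, read 6974 on mock and 4296 on TNBS, with 7665 on ginger and 9446 on zingerone. Cebpb, which mediates the acute phase response, read 984 on mock and 19442 on TNBS, with 4547 on ginger and 3868 on zingerone. Neither shared the order of Alb: Hnf4a was lowest and Cebpb highest on TNBS.

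Acute phase proteins, a class that includes fibrinogen, were high on the TNBS array in most cases. Of 12 measured genes 8 were higher on TNBS than on mock (5.08% of all measured genes), 6 were lower on ginger than on TNBS (2.48%) and 6 on zingerone (2.96%), and 1, Itih4, was in the Alb order (13.2%). Haptoglobin (Hp), the hemoglobin-binding counterpart of hemopexin, read 1195 on mock and 30534 on TNBS, with 4950 on ginger and 8544 on zingerone. The serum amyloid gene Saa3 read 3761, 50859, 6610 and 7210 in the same order. Fgb was 1.29-fold higher on TNBS than on mock, and on the compound arrays it lay below its mock value, where Hp and Saa3 lay above theirs.

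Receptors and binding partners of the plasma proteins showed no step like that of Alb. Of 25 measured genes 3 were in the order (13.2% of all measured genes), none at 2-fold (0.0597%), and the median gap was -0.34. Fcgrt, the receptor that salvages albumin from breakdown, read 1820 on mock and 1839 on TNBS, with 2338 on ginger and 1696 on zingerone. Tfrc, the receptor of transferrin, read 745.5 on mock and 425 on TNBS, with 517.5 on ginger and 595.5 on zingerone. On TNBS, 7 of the 25 were higher than on mock (5.08% of all measured genes) and 1 was lower (4.52%). Among the 7, tissue factor (F3), which starts clotting, read 943, 10575.5, 5282 and 4778 in the order of arrays above, and the plasminogen activator Plat 644.5, 5190, 1032 and 866. For iron and heme, the exporter Slc40a1 read 2154 on mock and 803 on TNBS, with 1612.5 on ginger and 1607 on zingerone, and the heme-degrading Hmox1 439, 1957, 908.5 and 688.

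**Figure D4:**
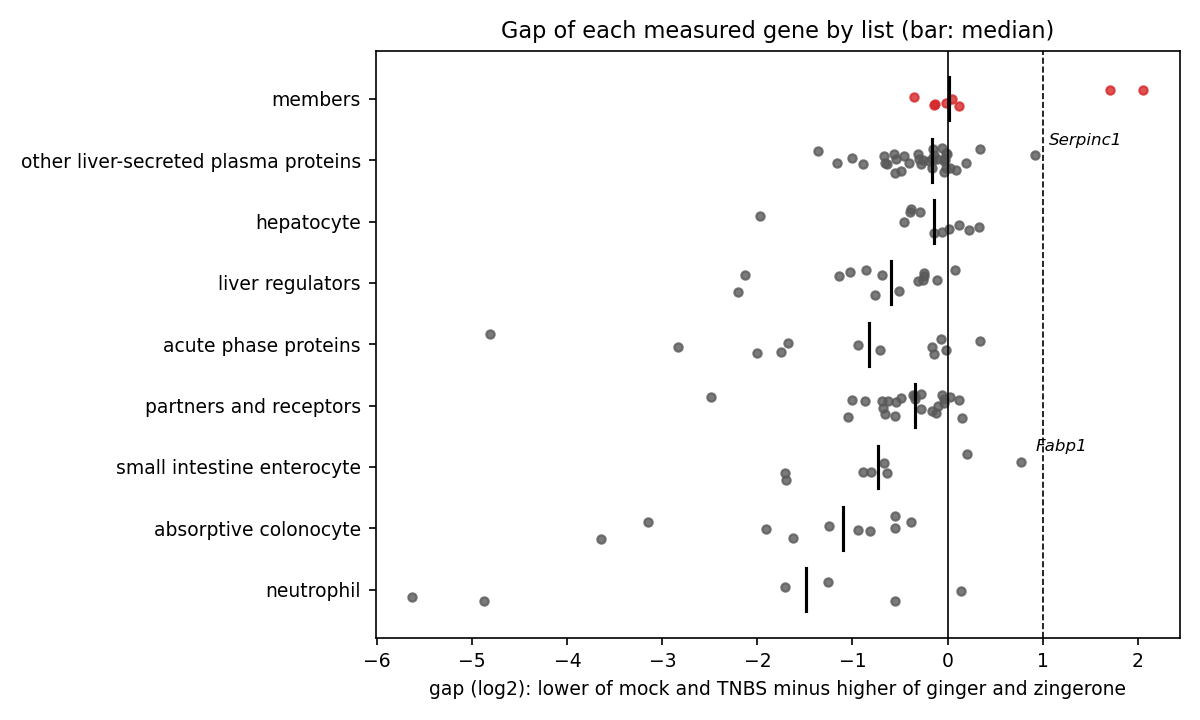
Gap (log2) of each measured gene, 1 point per gene, for the plasma protein genes (members, red) and 8 other gene lists; black bars are medians, the solid line is at 0 and the dashed line at a 2-fold gap. Alb and Fgb are the only points to the right of the dashed line, and Serpinc1 and Fabp1 come closest to it.

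Markers of colon and other cells were read in the same way. For colon, 10 of 11 absorptive colonocyte and 7 of 8 goblet cell markers were measured, and Guca2a (20660 on mock, 7.45-fold lower on TNBS) and Spink4 (33940 on mock, 4.78-fold lower on TNBS) were bright. None of the cell type lists had a gene with a 2-fold gap in the Alb order. Only 0.0597% of all measured genes (6 genes) had one, so its absence from such short lists says little. Of all measured genes 13.2% were in the order with any gap. Median gaps were -1.10 for absorptive colonocytes, -0.93 for goblet cells, -0.74 for small intestine enterocytes (2 of 8 in the order, Fabp1 and Mttp), -0.31 for exocrine pancreas, -0.65 for adipocytes, -0.27 for red blood cells (1 of 2), -1.48 for neutrophils (1 of 6), -0.29 for macrophages, -0.10 for smooth muscle (3 of 7), -0.19 for visceral mesothelium and -0.17 for mammary and skin surface genes (1 of 5).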

How the data were processed

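The authors deposited linear Cy3 intensity values of 29922 probes for each of the 4 arrays. The submitters' processing notes name limma, with no version or role. How background was handled and arrays were normalized is not given in the sources used here. Once sorted, the deposited intensities of the arrays agree to within 1.84%, which quantile normalization would give, and run from 74.2 to 64634. Of the probes, 21020 have 1 gene symbol, none has more and 8902 have no symbol in the platform annotation; symbols were updated through RefSeq synonyms (GRCm38.p6: 17558 current, 3410 updated, 52 kept). The log2 of each intensity was used without a pseudocount, and probes of a gene were averaged (Python 3.11.15, pandas 2.3.3, NumPy 2.4.6). With 1 array per group no test was run.

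The members and lists were chosen with earlier results of these data known. Named genes are the 10 members, the 10 nearest profiles, list genes 2-fold apart from mock or TNBS on a compound array and the 2 largest gaps of a cell type list. Cps1, Cyp1a2, Tat, G6pc, Mttp, Fcgrt, Tfrc, Medag, Hp, Saa3, Krt20, Zg16 and Lypd8 were named after their values were seen. The same holds for the dim hepatocyte markers and the dim plasma protein genes. The gap measure was checked on simulated data with equal falls planted on both compound arrays. That check does not bear on the spread between mice or on the error of a single probe. Alternatives were quantile normalization, equal array medians, subtraction of the 5th percentile with values under 50 raised to 50, raising values to the 25th percentile, keeping all genes, filtering at the 75th percentile and taking the brightest probe per gene.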

Additional observations from a re-analysis of the deposited data

How the results depend on the processing

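Under the 7 alternatives the gap of Alb ranged from 2.06 to 2.24 and that of Fgb from 1.71 to 2.43 (log2), and the 2 kept places 2 and 3 among measured genes, in exchanged order after subtraction of the 5th percentile. Of 15 counts, 102 of 105 values under the alternatives stayed within 1.5 times. This says little, because most alternatives could hardly move the members. Each has 1 probe, so another filter or the brightest probe leaves its values as they were. The arrays already agreed to within 1.84% once sorted, so rescaling changed little. The count of measured genes in the Alb order was 2359 with no filter and 641 with a filter at the 75th percentile, against 1332, because more or fewer genes were kept, and the share was 14.2% and 12.4%. The count at 2-fold was 10 against 6 after subtraction. Fgg, dim on all arrays, had a gap from -0.0044 to 0.09. No paired analysis was possible because each group has 1 array. Signal over background limits Fgg, Hpx, Trf and Apoa1.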

Other observations

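Since transthyretin is also made by hormone-secreting cells, genes of enteroendocrine cells were read beside Ttr, chosen after the Ttr values were seen. Glucagon (Gcg) read 2082 on mock and 4169 on TNBS, with 4527 on ginger and 3471 on zingerone. Peptide YY (Pyy) read 24488.5, 32389, 32239 and 36266 in that order. Both were lowest on the mock array, where Ttr was highest. Chga, a secretory granule protein, read 501 on mock and 346 on TNBS, with 450 on ginger and 435 on zingerone, and Insl5 read 2339, 1499, 2327 and 1833. These genes were highest on mock, as Ttr was, Insl5 by a small margin over ginger. Chgb, Sct and Sst were highest on ginger. The distances of 7 such genes to the Ttr profile ran from 1.34 (Chga) to 2.37 (Gcg), against 0.56 for Apoa2. The distance of all measured genes to Ttr is not given here, and the part of enteroendocrine cells in the Ttr values was not tested.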
